A study of Mus musculus with 2 samples.

Results

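The 10 genes described here encode proteases that cut the extracellular matrix around tumour cells, together with the inhibitors and the receptor that control them, and they were read as 10 of the 27998 genes counted in leukocytes from mouse tumours. The matrix metalloproteinase (MMP) genes were Mmp9, Mmp12, Mmp13, Mmp14 and Mmp19, Adam8 encodes a membrane-anchored metalloprotease, Plau and Plaur encode urokinase and its receptor, and Timp1 and Timp2 encode tissue inhibitors of metalloproteinases. The members were taken by gene symbol, from a list drawn up with earlier results of these data known. RNA was counted in single CD45+ cells, collected with magnetic beads from TSA tumours, which are grafts of a mammary adenocarcinoma line grown under the skin of Balb/c mice. The untreated library came from 3 pooled mice, and the NAM library came from 3 pooled mice that drank 0.5% nicotinamide (NAM, a form of vitamin B3) for 10 days. Both groups carried the same graft, so the labels name NAM as the only agent that separated them.

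In the untreated library 2922 cells carried 29161823 UMIs (molecular barcodes that let each captured transcript be counted once), and 3276 cells carried 32090120 in the NAM library. The median cell had 9056 and 9128 UMIs. There was 1 library per group, so no difference has a replicate check, no test was made, and a difference between library preparations and an effect of NAM cannot be told apart. All intervals are exact 95% intervals for counting error only (Poisson for levels, conditional binomial for ratios, Clopper-Pearson for shares of cells). The libraries shared 11 cell barcodes.

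Macrophages and osteoclasts are among the main producers of secreted MMPs in tissue. MMPs are made as inactive precursors, MMP-14 sits in the cell membrane where it can activate other MMPs, and TIMPs bind the active site of MMPs and block it. Urokinase, held at the cell surface by its receptor, turns plasminogen into plasmin, which cuts fibrin and can activate MMP precursors. In tumours these proteins are known for opening the matrix to migrating cells and for releasing growth factors bound in it.

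Cells were sorted into exclusive gates by UMIs of marker genes that are not among the 10 members. Complement C1q genes marked macrophages, which were split by Vcam1 and Dnase1l3 (430 untreated and 461 NAM cells), cell cycle genes (220 and 212) and interferon-induced genes (141 and 162), with 922 and 1082 other macrophages; these gates do not hold all 1996 and 2208 macrophages. Ctsk and Acp5 marked osteoclast-like cells (104 and 121), Ly6c2 marked monocytes (192 and 212), and Xcr1 with Clec9a, Ccr7 with Fscn1, and Cd209a marked type 1 (27 and 29), mature (15 and 15) and Cd209a dendritic cells (33 and 36). A remainder of 252 and 303 other myeloid cells met none of these rules. Markers that no gate used were checked: 8 of 9 osteoclast markers, such as Ocstamp (285 and 289 CPM, meaning UMIs per 1000000 UMIs of the gate, against 9.03 and 11.9 in the other myeloid cells), 6 of 6 monocyte markers and 5 of 5 macrophage markers were higher inside their gate in both libraries. The same held for 4 of 4 type 1, 3 of 4 mature and 4 of 4 Cd209a dendritic markers, while the osteoclast marker Calcr was at 0 and 4 UMIs and the dendritic marker Apol7c was at 0 in both. Neutrophils store MMP-9, and their defining markers Ly6g, Camp and Ngp were at 0 in all myeloid cells of both libraries. The 8 neutrophil markers summed to 44.9 CPM there in each library. Cells with 10 or more S100a8 and S100a9 UMIs (4 and 11) had been set aside first, so the gating itself limits this sum. The 288 and 313 T and NK cells, which should hold little of these transcripts, served as the background reference (medians of 4680 and 4417 UMIs per cell, against 9515 and 9534 in all myeloid cells).

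Promoter windows are shown for 3 members, because Mmp12 and Mmp13 were the pair that was over 1.5-fold higher in NAM myeloid cells, Plaur had the next largest ratio there, and these 3 windows were also the ones that held the motif searched. RefSeq windows (build GRCm38.p6, from 250 bases before to 50 after a transcript start) were found for 7 of the 10 members, 8 windows in all, and Mmp9, Mmp19 and Plau had none in the table used. The letters TGANTCA, the AP-1 motif, which reads the same on both strands, were searched in them, and capitals mark each match. All 3 lines are 5′ to 3′ on the plus strand, at chr9:7347124-7347423 for Mmp12, chr9:7272264-7272563 for Mmp13 and chr7:24462233-24462532 for Plaur.
Mmp12: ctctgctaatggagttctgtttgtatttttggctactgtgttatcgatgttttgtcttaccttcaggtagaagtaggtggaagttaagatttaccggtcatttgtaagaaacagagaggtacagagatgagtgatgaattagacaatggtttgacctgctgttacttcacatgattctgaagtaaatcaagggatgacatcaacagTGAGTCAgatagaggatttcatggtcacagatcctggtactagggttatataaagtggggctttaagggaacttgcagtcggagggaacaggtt
Mmp13: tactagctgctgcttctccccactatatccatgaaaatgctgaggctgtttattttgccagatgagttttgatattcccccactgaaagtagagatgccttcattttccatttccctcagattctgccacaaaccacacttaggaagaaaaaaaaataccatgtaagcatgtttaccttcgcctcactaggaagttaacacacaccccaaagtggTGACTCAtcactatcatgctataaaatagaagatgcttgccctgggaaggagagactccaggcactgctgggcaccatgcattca
Plaur: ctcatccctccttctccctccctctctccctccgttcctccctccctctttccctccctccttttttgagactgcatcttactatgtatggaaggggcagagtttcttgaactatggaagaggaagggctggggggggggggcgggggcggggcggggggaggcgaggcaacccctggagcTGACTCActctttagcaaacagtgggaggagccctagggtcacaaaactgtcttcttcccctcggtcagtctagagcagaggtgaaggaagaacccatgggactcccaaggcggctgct

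The match began at position −44 from the transcript start in Mmp12, −35 in Mmp13 and −69 in Plaur. A second Mmp12 window at chr9:7344147-7344446 and the windows of Mmp14, Timp1, Timp2 and Adam8 held no match. These letters occurred in 2565 of 32851 RefSeq promoters of the same length (7.81%), so a match is a description of the window and not a binding site. In GENCODE (GRCm38) Mmp12 spans chr9:7344381-7369499 and Mmp13 chr9:7272514-7283331, near each other on the plus strand. The other members are protein-coding genes at chr2:164940780-164955850 (Mmp9), chr14:54431612-54445364 (Mmp14), chr10:128790910-128800824 (Mmp19), chrX:20870166-20874735 (Timp1), chr11:118301069-118355740 (Timp2), chr7:139978932-139992562 (Adam8), chr14:20836660-20843385 (Plau) and chr7:24462484-24475968 (Plaur), with Timp2 and Adam8 on the minus strand.

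The 10 genes were divided over the myeloid cells in different ways. Osteoclast-like cells were 3.97% and 4.14% of myeloid cells but held 80.3% and 81.6% of the Mmp9 UMIs (untreated and NAM). Ly6c2 monocytes were 7.33% and 7.25% of myeloid cells and held 25.3% and 15.1% of the Mmp19 UMIs and 22.2% and 8.10% of the Timp1 UMIs. In contrast, Plau and Timp2 were spread over the macrophage gates, with 35.5% and 41.1% of Plau and 34.7% and 35.8% of Timp2 in the other macrophages, which were 35.2% and 37.0% of the cells.

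**Figure D1:**
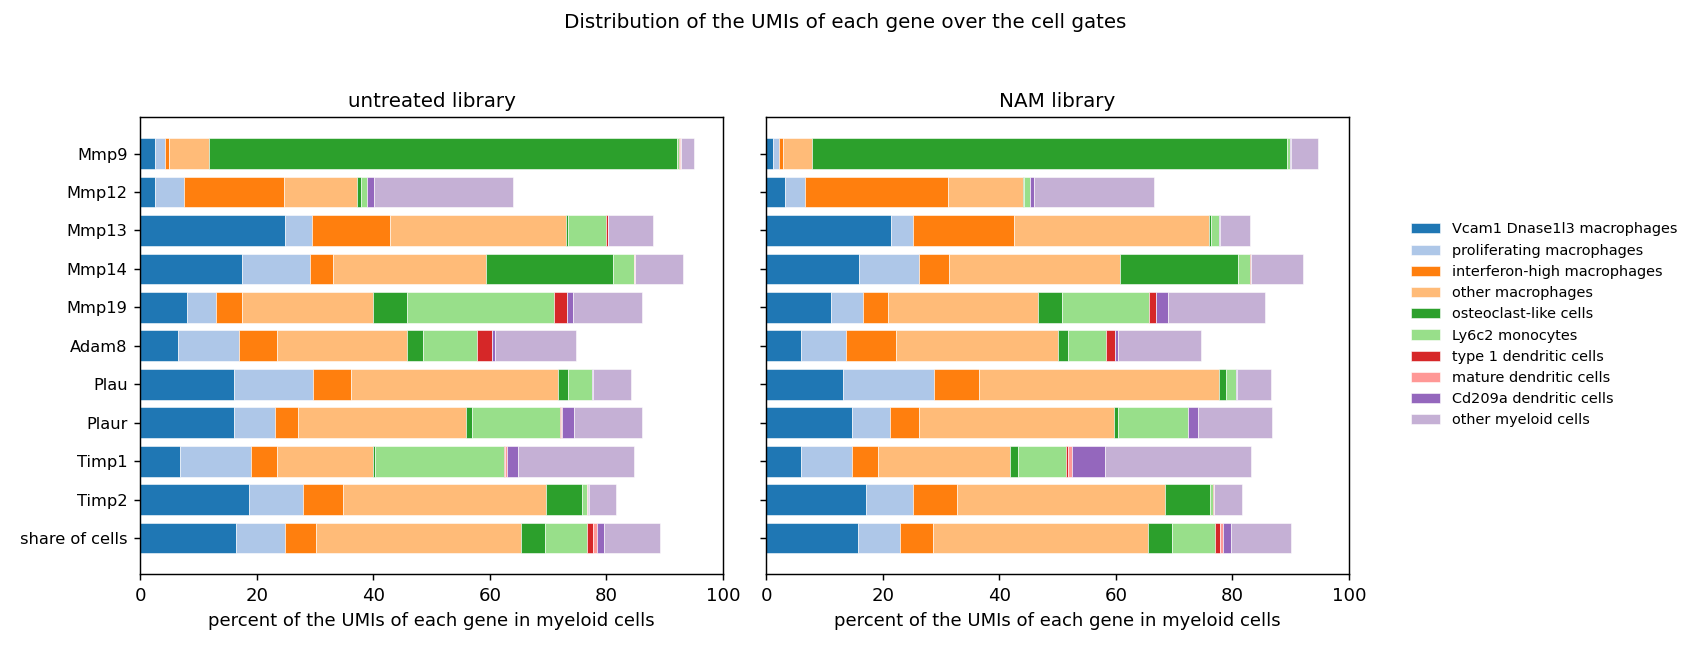
Share of the UMIs of each gene that lay in each cell gate (percent of the gene's UMIs in myeloid cells, stacked bars), for the untreated library on the left and the NAM library on the right, with the share of cells in the bottom bar. Bars cover the gates described here and so do not reach 100%, and the undrawn part is largest for Mmp12. Osteoclast-like cells take most of the Mmp9 bar (80.3% and 81.6%), whereas the Plau and Timp2 bars follow the macrophage share of the cells more closely.

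A gate was compared with the rest of the myeloid cells within each library, and a member was counted where it was at least 2-fold higher in both libraries with both intervals leaving out 0, among genes with 20 or more UMIs. In osteoclast-like cells 2 of 10 members (Mmp9 and Mmp14) were counted, against 8.03% of all genes. In Ly6c2 monocytes 3 of 10 (Mmp19, Timp1 and Plaur) were counted, against 3.01% of all genes. Timp1 was not counted there under 4 of 6 alternatives, among them thinned cells and leaving out the 5 top cells per library. Interferon-high macrophages counted 2 (Mmp12 and Mmp13) against 1.48%. The interferon-high count was 0 when the 5 top cells per library were left out. The count was 0 in Vcam1 Dnase1l3 macrophages (0.47% of all genes), proliferating macrophages (4.58%), type 1 dendritic cells (3.51%), mature dendritic cells (3.87%) and Cd209a dendritic cells (2.62%). Orders of levels given here are over these 8 gates. That Mmp9 leads osteoclast-like cells was known from these data when the gates were chosen, so its place there is a description.

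**Figure D2:**
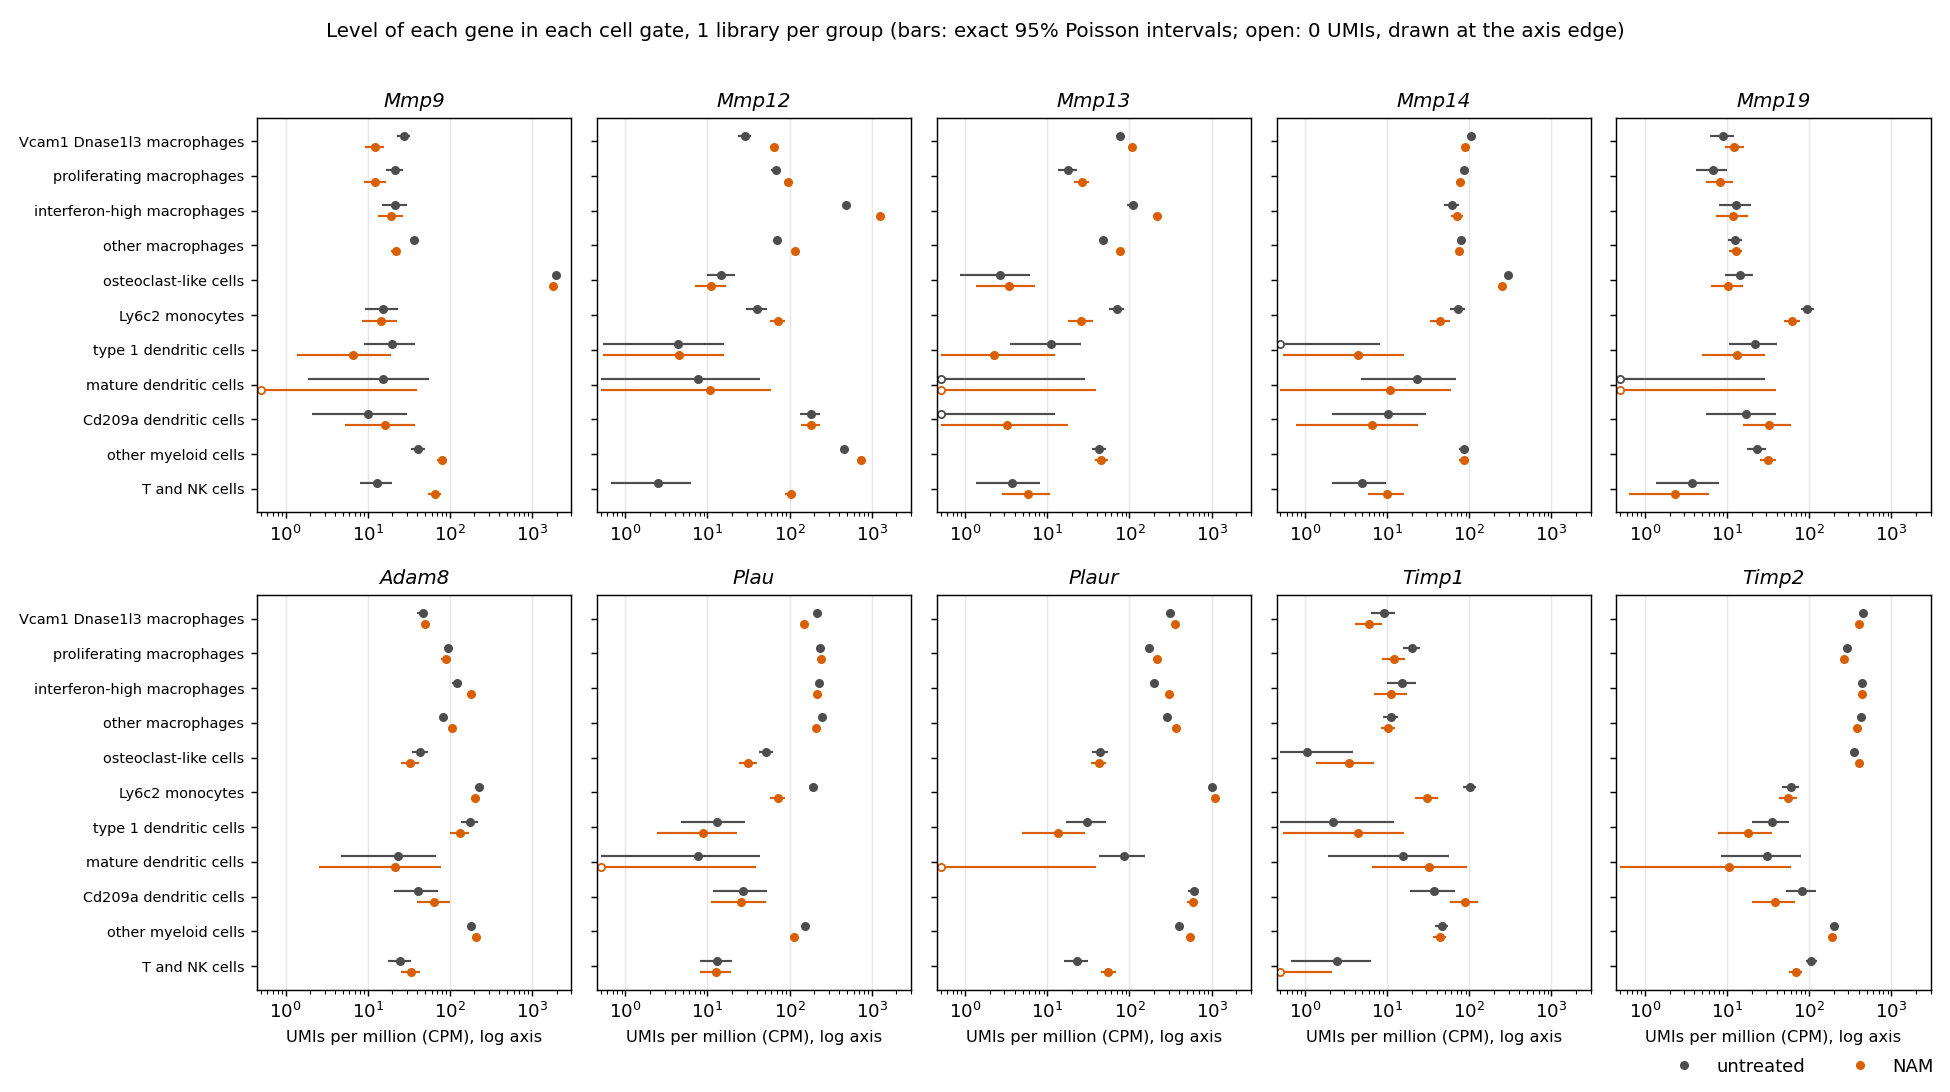
Level of each of the 10 genes in each cell gate (CPM, log axis) in the untreated (grey) and NAM (orange) library, with exact 95% Poisson intervals cut at the left edge and open points for 0 UMIs. Mmp9 stands at 1939 and 1821 CPM in osteoclast-like cells and at no more than 81.3 CPM in any other gate drawn, while Plaur is highest in Ly6c2 monocytes in both libraries.

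Mmp9 encodes gelatinase B, which cuts denatured collagen and is known for its role in bone resorption. In osteoclast-like cells it stood at 1939 CPM in the untreated and 1821 CPM in the NAM library, a log2 gate-over-rest ratio of 5.78 (interval 5.67 to 5.88) and 5.91 (5.80 to 6.02). There, 99 of 104 untreated cells (95.2%) and 113 of 121 NAM cells (93.4%) had an Mmp9 UMI, and 78.8% and 74.4% did once each cell was thinned to 3000 UMIs, against 4.86% and 3.51% of thinned T and NK cells. The level was also read against Ctsk, the osteoclast protease gene used for the gate. Across all myeloid cells Mmp9 was at 35.1 and 30.5 CPM in cells with 0 Ctsk UMIs, no higher in cells with 1 to 4 (34.4 and 23.1 CPM), and at 2156 and 1968 CPM in cells with 20 or more. In between, the 20 untreated and 15 NAM cells with 5 to 19 Ctsk UMIs stood at 262 and 373 CPM. Between the libraries the osteoclast-like level differed by a log2 ratio of −0.09 (−0.16 to −0.02), inside 1.5-fold. This small ratio depended on which cells were kept: it was −0.52 (−0.61 to −0.44) without cells with T and NK markers and the deepest cells, and 0.06 (−0.03 to 0.14) without cells with a UMI of the neutrophil genes S100a8 or S100a9.

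Other members differed between the outer Ctsk bins, in either direction. Mmp14 was at 80.4 and 72.9 CPM in cells with 0 Ctsk UMIs and at 305 and 252 CPM in cells with 20 or more. Plau went from 228 and 182 CPM to 45.4 and 31.2 CPM over the same bins, and Plaur from 330 and 411 CPM to 43.0 and 51.4 CPM. In both libraries the intervals of the outer bins did not overlap for any of the 4 genes.

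**Figure D3:**
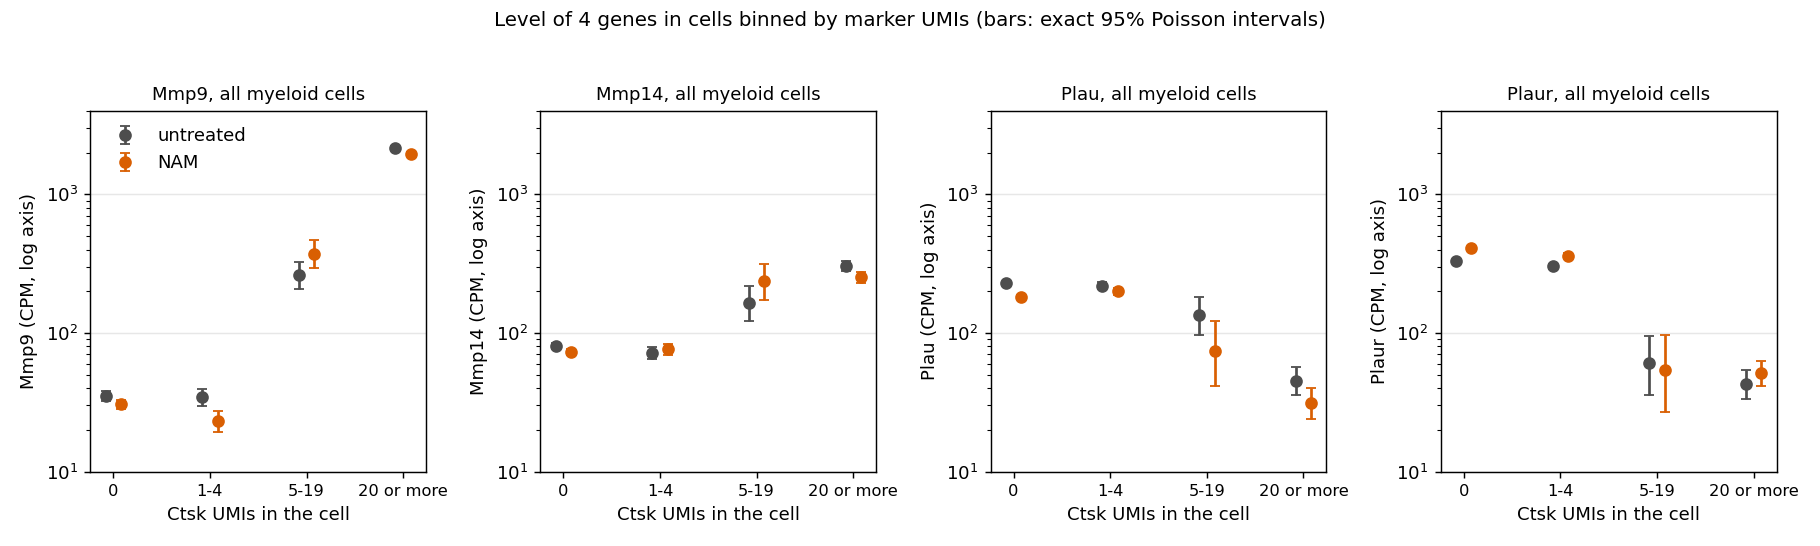
Level of Mmp9, Mmp14, Plau and Plaur (CPM, log axis) in all myeloid cells binned by their Ctsk UMIs, in the untreated (grey) and NAM (orange) library with exact 95% Poisson intervals. Mmp9 stands at 2156 and 1968 CPM in cells with 20 or more Ctsk UMIs, where Plau is at 45.4 and 31.2 CPM and Plaur at 43.0 and 51.4 CPM.

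In the myeloid gates given here other than osteoclast-like cells, Mmp9 was low and its direction was not shared. The cells set aside for their neutrophil marker UMIs (4 untreated and 11 NAM) are outside these gates. Mmp9 was at 326.8 CPM untreated and 926.6 CPM with NAM in them. These levels rest on 17 and 76 UMIs, and the highest cell of each library held 17 and 72 of them. In all macrophages together Mmp9 was at 36.7 CPM untreated and 26.1 CPM with NAM (−0.50, −0.65 to −0.34), and 8.62% and 4.48% of thinned cells had a UMI, the second share close to the T and NK background above. Lower levels in NAM were seen in Vcam1 Dnase1l3 macrophages (27.6 to 12.3 CPM) and in other macrophages (36.8 to 22.0 CPM), but other myeloid cells went from 41.3 to 81.3 CPM (0.98, 0.63 to 1.34). Monocytes stood at 15.2 and 14.5 CPM, no higher than the 12.99 CPM of untreated T and NK cells by more than their intervals. In T and NK cells of the NAM library, 2 cells held 61 and 35 of 112 Mmp9 UMIs.

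Mmp12 encodes macrophage elastase, which degrades elastin. It was the member with the largest difference between the libraries in macrophages, at 165 CPM untreated (interval 159 to 171) and 315 CPM with NAM (308 to 322), a log2 ratio of 0.93 (0.88 to 0.99). Mmp12 UMIs were present in 298 of 1996 macrophages of the untreated library (14.9%) and in 471 of 2208 of the NAM library (21.3%), and in 7.62% and 11.9% after thinning, against 1.04% and 4.79% of thinned T and NK cells. The NAM value was higher in the 4 macrophage gates given here, which hold only part of the macrophage Mmp12 UMIs, with intervals that left out 0, but in proliferating macrophages the interval held 0 without the highest cell of each library. In interferon-high macrophages Mmp12 went from 491 to 1244 CPM (1.34, 1.23 to 1.46), and in Vcam1 Dnase1l3 macrophages from 28.5 to 65.2 CPM (1.19, 0.89 to 1.51). Other macrophages (69.9 and 118 CPM) and proliferating macrophages (68.1 and 95.4 CPM) differed by less, 0.75 (0.61 to 0.90) and 0.49 (0.24 to 0.74).

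A few cells carried much of the transcript. In interferon-high macrophages the top 5 cells held 76.6% of the untreated and 60.5% of the NAM Mmp12 UMIs. In proliferating macrophages 1 cell held 102 of 234 untreated and 1 cell held 186 of 324 NAM UMIs, and without them 132 and 138 UMIs remained, a log2 ratio of 0.08 (−0.27 to 0.44). Without the 5 top cells per library of each gate, the log2 ratio was 0.32 (−0.32 to 0.97) in proliferating, 2.06 (1.84 to 2.30) in interferon-high, 1.27 (0.82 to 1.72) in Vcam1 Dnase1l3 and 1.19 (1.00 to 1.39) in other macrophages. In all macrophages the top 5 cells held 32.1% and 22.2%, and the highest cell had 488 UMIs untreated and 406 with NAM. When the 5 top cells per library were left out, the macrophage log2 ratio was 1.13 (1.06 to 1.199), no smaller than with them. In osteoclast-like cells Mmp12 was low, at 14.8 and 11.2 CPM, and 17 of the 28 untreated UMIs were in 1 cell. Cd209a dendritic cells stood at 181 CPM in both libraries on 53 and 56 UMIs, of which 6 and 21 were outside the 5 top cells, and other myeloid cells at 463 and 731 CPM (0.66, 0.55 to 0.77).

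Mmp13 encodes collagenase 3, which cuts fibrillar collagen. In macrophages it was at 54.5 CPM untreated and 93.2 CPM with NAM, a log2 ratio of 0.77 (0.67 to 0.88), and the 5 highest cells held only 11.1% and 12.1% of its UMIs. Interferon-high macrophages stood highest in both libraries (110.0 and 216 CPM; 0.97, 0.71 to 1.23). Vcam1 Dnase1l3 macrophages were at 77.4 and 107 CPM (0.47, 0.27 to 0.67). Other macrophages were at 47.8 and 75.8 CPM (0.67, 0.49 to 0.84), and proliferating macrophages at 17.8 and 26.2 CPM (0.56, 0.08 to 1.06). Osteoclast-like cells held 5 and 7 Mmp13 UMIs, and mature dendritic cells held 0 in both libraries, where a limit of 3 UMIs, in place of the Poisson interval, allows up to 23.3 and 32.1 CPM.

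The direction was opposite in Ly6c2 monocytes, where Mmp13 stood at 70.5 CPM untreated and 25.8 CPM with NAM (−1.45, −2.08 to −0.85). However, 1 untreated monocyte held 42 of the 88 UMIs, and leaving out the 5 top cells per library gave a log2 ratio of −0.51 (−1.61 to 0.55), an interval that holds 0.

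Mmp13 UMIs were more frequent in cells with an Mmp12 UMI, although most cells with either had no UMI of the other. Among thinned macrophages an Mmp13 UMI was seen in 28.9% of untreated and 28.6% of NAM cells with an Mmp12 UMI, against 6.89% and 9.61% of those without. Adam8 UMIs were likewise seen in 45.4% and 51.1% of cells with Mmp12 and in 18.8% and 19.7% of those without. Plaur was at 44.1% (36.0 to 52.4) and 42.6% (40.3 to 44.9) in the untreated library. With NAM it was at 57.3% (51.0 to 63.3) and 49.6% (47.3 to 51.8), and the intervals overlapped in both libraries. These shares are a description of cells of 1 library each, and cells are not replicates.

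Mmp14 encodes a membrane-bound collagenase. Osteoclast-like cells led in both libraries at 294 and 253 CPM, with a UMI in 92.3% and 94.2% of cells, and the gate-over-rest log2 ratio was 1.91 (1.77 to 2.04) and 1.78 (1.64 to 1.92). Within that gate the libraries differed by −0.21 (−0.39 to −0.04). The 4 macrophage gates lay between 61.1 and 103 CPM untreated and between 71.4 and 88.7 CPM with NAM, and macrophages as a whole were at 80.8 and 76.3 CPM, with an interval that holds 0 (−0.18 to 0.01). Monocytes were at 72.1 and 44.3 CPM (−0.70, −1.21 to −0.20), and with cells thinned to 3000 UMIs that log2 ratio was −0.46 (−1.16 to 0.24). Dendritic cells had 0 to 3 UMIs per gate.

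Mmp19 encodes a secreted MMP that cuts basement membrane proteins. Ly6c2 monocytes stood highest, at 95.3 CPM untreated and 62.0 CPM with NAM, and 2.83 and 2.04 on the log2 scale above the other myeloid cells. In the untreated library this was clear of the type 1 dendritic cells that came next (21.9 CPM), whereas in the NAM library the monocyte interval overlapped that of Cd209a dendritic cells (32.4 CPM on 10 UMIs). The difference between libraries in monocytes was −0.62 (−1.05 to −0.19), and −0.36 (−0.93 to 0.21) with thinned cells. Macrophages were at 12.1 and 13.5 CPM (0.15, −0.09 to 0.40), and the 4 macrophage gates lay between 6.69 and 12.8 CPM in either library.

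Adam8, the membrane-anchored metalloprotease gene, was highest of these 8 gates in Ly6c2 monocytes, at 229.8 CPM untreated and 204 CPM with NAM (−0.17, −0.42 to 0.08). Untreated, the type 1 dendritic cells that came next (175 CPM on 80 UMIs) had an interval that overlapped that of the monocytes, and with NAM the interferon-high macrophages that came next did. A UMI was seen in 85.2% and 79.3% of type 1 dendritic cells, but in 25.9% and 24.1% once thinned, against 6.94% and 8.63% of T and NK cells. Across macrophages Adam8 was at 106 and 127 CPM (0.26, 0.18 to 0.34), and interferon-high macrophages at 123 and 179.8 CPM (0.54, 0.29 to 0.80). Other macrophages were at 82.4 and 105 CPM (0.35, 0.21 to 0.49), Vcam1 Dnase1l3 macrophages at 46.6 and 50.5 CPM, and osteoclast-like cells at 43.8 and 33.0 CPM.

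Plau, the urokinase gene, was lower in the NAM library in macrophages as a whole. They were at 245 CPM untreated and 206 CPM with NAM (−0.25, −0.31 to −0.19), and 40.7% and 34.9% of thinned cells had a UMI, against 3.82% and 5.43% of T and NK cells. Vcam1 Dnase1l3 macrophages were at 217 and 149 CPM (−0.54, −0.69 to −0.40), while the intervals held 0 in proliferating macrophages (233 and 243 CPM; 0.06, −0.08 to 0.20) and interferon-high macrophages (−0.09, −0.30 to 0.11). In Ly6c2 monocytes Plau was at 194 CPM untreated and 71.7 CPM with NAM (−1.44, −1.80 to −1.08), where 81 of 192 untreated cells (42.2%) and 39 of 212 NAM cells (18.4%) had a UMI. Osteoclast-like cells were at 52.2 and 31.6 CPM (−0.73, −1.20 to −0.26), and at −0.22 (−1.50 to 1.07) with thinned cells. The 5 macrophage markers were also lower in these cells, summing to 2387 CPM untreated and 1577 CPM with NAM, and their part in the Plau level was not tested.

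Plaur, the urokinase receptor gene, behaved differently from Plau. It was highest in Ly6c2 monocytes, at 1008 CPM untreated and 1089 CPM with NAM, where 89.6% and 92.5% of cells had a UMI, and the libraries differed by 0.11 (0.00 to 0.22). Cd209a dendritic cells came next (606 and 586 CPM), then Vcam1 Dnase1l3 macrophages (309 and 358 CPM), the latter with a log2 ratio of 0.22 (0.11 to 0.32). In all macrophages Plaur was at 277 and 354 CPM (0.35, 0.30 to 0.40), higher with NAM in each of the 4 macrophage gates, and in interferon-high macrophages the log2 ratio reached 0.61 (0.41 to 0.81). In osteoclast-like cells (44.3 and 42.2 CPM) and type 1 dendritic cells (14 and 6 UMIs) it was low. Thus Plau was lower and Plaur higher in NAM macrophages, each by less than 1.5-fold, and both intervals left out 0. Of all genes tested in macrophages, 19.9% had an interval below 0 and 12.8% had one above 0. The 5 macrophage markers summed to 19665 CPM in untreated and 18340 CPM in NAM macrophages, with Mrc1 at 359 and 237 CPM and Adgre1 at 334 and 259 CPM, and their part in these ratios was not tested. In thinned untreated macrophages 49.9% of cells with a Plau UMI had one of Plaur, against 37.8% of cells without, and with NAM these shares were 51.5% and 49.97%. In T and NK cells Plaur was at 22.9 and 55.5 CPM.

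Timp1 encodes a secreted inhibitor of most soluble MMPs. It was sparse, with 567 and 469 UMIs in all myeloid cells. Untreated Ly6c2 monocytes stood highest at 101 CPM, whereas NAM monocytes were at 30.6 CPM, a log2 ratio of −1.72 (−2.28 to −1.19), and −1.94 (−2.75 to −1.20) when the 5 top cells per library were left out. Timp1 UMIs were present in 42 of 192 monocytes untreated (21.9%) and in 22 of 212 with NAM (10.4%), and in 12.0% and 4.72% after thinning, against 0.694% and 0 of T and NK cells. In contrast, Cd209a dendritic cells held 11 UMIs untreated and 27 with NAM (37.5 and 87.4 CPM, log2 ratio 1.22, 0.16 to 2.38). Without the 5 top cells per library of that gate, 0 and 9 of these UMIs remained. Of the 4 check markers of that gate, Ccl17 went from 5 to 87 UMIs (17.0 to 282 CPM), Kmo from 18 to 8, Flt3 from 8 to 11, and Ffar2 had 17 in both, and their part in the Timp1 level was not tested. Macrophages were at 15.0 and 11.9 CPM (−0.34, −0.57 to −0.10), and at −0.05 (−0.49 to 0.39) with thinned cells, of which 3.11% and 3.85% had a UMI. Osteoclast-like cells held 2 and 7 UMIs.

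Timp2, whose product both inhibits MMPs and takes part in the activation of pro-MMP-2 by MMP-14, was found across the macrophage gates and in osteoclast-like cells. Vcam1 Dnase1l3 macrophages stood at 453 and 402 CPM (−0.17, −0.27 to −0.08) and interferon-high macrophages at 443 and 442 CPM (0.00, −0.15 to 0.14), and these gates overlapped in both libraries. All macrophages were at 443 and 409 CPM (−0.11, −0.15 to −0.07), osteoclast-like cells at 350 and 401 CPM (0.20, 0.05 to 0.35), and monocytes at 59.2 and 55.5 CPM (−0.09, −0.59 to 0.40). T and NK cells were at 106 and 68.9 CPM, above the monocyte level in both libraries, so monocyte Timp2 is not distinguished from background here. Cd209a dendritic cells were at 81.7 and 38.9 CPM on 24 and 12 UMIs (−1.07, −2.21 to −0.02). Without the highest cell of each library in that gate, the log2 ratio was −0.39 (−1.74 to 0.91). Timp2 UMIs were about as frequent in thinned macrophages with an Mmp14 UMI (60.1% and 59.3%) as in those without (65.9% and 61.1%).

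The comparison of NAM with untreated cells can be read over the 10 members together, counting those at least 1.5-fold apart with an interval that leaves out 0. In all myeloid cells 2 of 10 were higher (Mmp12, from 172 to 314 CPM, and Mmp13, from 49.0 to 77.4 CPM) and 0 lower, against 1.52% and 4.74% of all genes tested. In macrophages the same members were counted, 2 higher and 0 lower, against 1.64% and 5.01%. In Ly6c2 monocytes 1 of 10 was higher (Mmp12, 50 and 90 UMIs) and 5 were lower (Mmp13, Mmp14, Mmp19, Plau and Timp1), against 3.42% and 6.21%. In osteoclast-like cells, where 8 members had 20 or more UMIs, 0 were higher and 1 was lower (Plau), against 1.72% and 4.63%. With thinned cells the all-myeloid count was 1 higher, as Mmp13 stood just under 1.5-fold (0.58, 0.40 to 0.76), and the macrophage count was 1 lower (Mmp9; −0.68, −0.96 to −0.40). Mmp9 was also counted lower in macrophages without the 5 top cells per library (−0.64, −0.81 to −0.46). The monocyte counts were 0 higher and 3 lower with thinned cells, and 3 were lower without the 5 top cells per library. The shares of all genes above belong to the main setting, so the counts under alternatives have none beside them. The median log2 ratio over the 10 members was −0.05 in all myeloid cells, 0.04 in macrophages, −0.40 in monocytes and −0.15 in osteoclast-like cells. Over all genes tested it was −0.04, −0.04, −0.02 and −0.01. The osteoclast-like member median takes in Mmp13 (5 and 7 UMIs) and Timp1 (2 and 7 UMIs). Genes under 20 UMIs were left out of the median over all genes, so the osteoclast-like medians are not like for like.

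**Figure D4:**
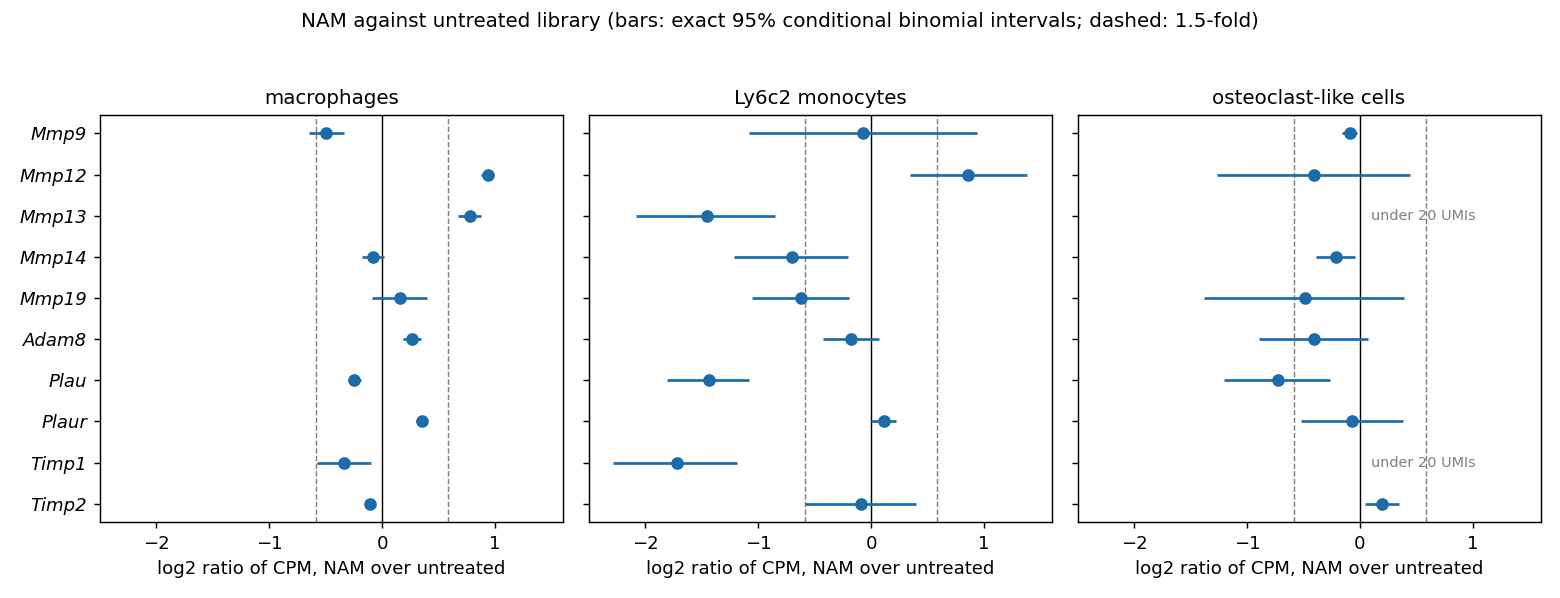
Log2 ratio of CPM, NAM over untreated, for each of the 10 genes in macrophages, Ly6c2 monocytes and osteoclast-like cells, with exact 95% conditional binomial intervals and dashed lines at 1.5-fold. Mmp12 and Mmp13 lie to the right of the dashed line in macrophages (0.93 and 0.77), whereas Mmp13, Mmp14, Mmp19, Plau and Timp1 lie to the left of it in monocytes.

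Values of other cell types that went with the monocyte result were read in the same gate. The 5 macrophage markers summed to 5629 CPM in untreated and 5801 CPM in NAM monocytes. The 8 neutrophil markers summed to 60.8 and 53.9 CPM with Ly6g, Retnlg, Camp and Ngp at 0, the 10 T and NK markers to 21.6 and 30.6 CPM, the 5 tumour epithelium markers to 8.01 and 4.83 CPM with Krt19 at 0, and the 6 fibroblast markers to 10.4 and 12.9 CPM with Dcn and Pdgfra at 0. The median monocyte had 5816 UMIs untreated and 5278 with NAM. Its median share of mitochondrial UMIs was 1.55% and 1.78%, beside 2.58% and 2.77% in macrophages and 2.82% and 3.25% in osteoclast-like cells. In macrophages the fibroblast markers summed to 13.01 and 18.9 CPM, and the tumour epithelium markers to 9.76 and 13.7 CPM. The part of all these values in the member levels was not tested.

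A list of 59 other genes of the pathway (further MMPs, ADAM and ADAMTS proteases, plasminogen activators, serpins, cystatins and surface partners) was counted by the same rule, and its counts are given beside the shares of all genes. In all myeloid cells 38 had 20 or more UMIs, with 1 higher (Serpinf2, 11 and 29 UMIs) and 1 lower in NAM (Serpine2, 57 and 29 UMIs), both under 100 UMIs in total, against 1.52% and 4.74%. The 2 with most UMIs were Cst3, the cystatin C gene (4046 and 3981 CPM), and Bsg, encoding the MMP inducer basigin (426 and 482 CPM). In macrophages 33 were measured, with 3 higher (Mmp25, Serpinf2 and Spint2) and 3 lower, among them Furin, encoding a convertase that activates MMP-14, at 164 CPM untreated and 106 CPM with NAM (−0.63, −0.71 to −0.56), beside Serpinb2 and Sdc1, against 1.64% higher and 5.01% lower. Furin was also lower in monocytes (122 and 64.4 CPM; −0.92, −1.33 to −0.52), where 18 of the list were measured with 2 higher (Mmp8 and Plgrkt) and 2 lower (Furin and Adam17), against 3.42% and 6.21%. In osteoclast-like cells 21 were measured, with 0 higher and 3 lower (Adam9, Serpine2 and Cst7), against 1.72% and 4.63%. The list's median log2 ratio was −0.09 in all myeloid cells and −0.07 in macrophages. Plg, the plasminogen gene, and Timp4 had 0 UMIs in myeloid cells of both libraries.

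Genes whose levels followed each member most closely over 22 points (11 gates in both libraries, which share the library totals) were found by Pearson correlation of log2 CPM, with a pseudocount of 10 CPM, over 9173 genes with 200 or more UMIs. Mmp9 was nearest to Atp6v1g1, a subunit gene of the proton pump that osteoclasts use to acidify bone (0.95), with Adck3 and Plekhf1. Mmp12 was nearest to Ankrd37 (0.87), Rnf128 and Adm, the adrenomedullin gene, and Adam8 to Cd36 (0.92), a lipid scavenger receptor gene, Ero1l and Spp1. Mmp13 was nearest to Creg2, Fgd4 and Cox4i2, and Mmp14 to Fundc2, Dok3 and Itgav. Fgr (0.83) was among the genes nearest to Timp1. The remaining members were nearest to Itgb2 (Mmp19, 0.87), Syngr1 (Timp2, 0.95), Apobec1 (Plau, 0.97) and the chemokine gene Cxcl2 (Plaur, 0.94). These correlations describe the gates and rest on a few points that stand far apart, such as osteoclast-like cells for Mmp9.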

How the data were processed

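CD45+ cells of 2 libraries, 1 untreated and 1 NAM, were analysed. The files deposited by the authors hold UMI counts by gene and by cell, from 10x 3′ v2 libraries run through Cell Ranger 2.1.0 on mm10. The annotation version is not given in the sources used here. Counts were not normalised, every cell had at least 3001 UMIs, and 0 columns lacked a sample.

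The members, the 59 other genes and the gate markers were chosen with earlier results of these data known. Gate minimums were set after the marker UMIs were seen, without reading the members: C1qa, C1qb and C1qc 20 UMIs for macrophages, Ctsk and Acp5 5 each, Ly6c2 3, Vcam1 and Dnase1l3 3, interferon genes 5, cell cycle genes 10, Xcr1 and Clec9a 3, Ccr7 3 with Fscn1 and Cacnb3 2, Cd209a 3, T and NK markers 5, S100a8 and S100a9 10. Cells over the last minimum (4 and 11) and T and NK cells with 50 or more C1q UMIs (11 and 28) were left out. Itgam, with 2 entries under its symbol, was not used. No doublets were removed. A further gate of macrophages, 1 correlated gene and 1 macrophage marker are not reported here.

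UMIs were summed per gate and library and divided by the gate's total (CPM). No test was possible with a single library on each side. Ratios of genes with under 20 UMIs were not counted. All members were named in each gate given; of the other genes, those at 100 or more UMIs past 1.5-fold in all myeloid cells, the 2 with most UMIs, and, chosen after their values were seen, those counted in a class. Shares were also taken with each cell thinned to 3000 UMIs (seed 1), which left out 0 cells. The ratio step was tested on simulated data. Alternatives were another scaling, thinned cells, leaving out the 5 highest cells, cells with T and NK markers with the deepest 2.5%, gate minimums raised by 1 and no UMI minimum. Leaving out cells with an S100a8 or S100a9 UMI, and the highest cell or the 5 highest cells within single gates, was added after seeing the data. Coordinates came from GENCODE M21 and promoters from RefSeq. Python 3.11.15, NumPy 2.4.6, SciPy 1.17.1, pandas 2.3.3 and matplotlib 3.10.9 were used.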

Additional observations from a re-analysis of the deposited data

Results flagged for a closer look

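For 3 members the NAM library was over 1.5-fold higher in some gates and over 1.5-fold lower in others, each with an interval that left out 0. The difference between the gates was not tested. The share of all genes that did the same was not taken, so this count is a description. Mmp9 was lower in Vcam1 Dnase1l3 macrophages (log2 ratio −1.17), proliferating macrophages (−0.78) and other macrophages (−0.74), but higher in other myeloid cells (0.98). Mmp13 was higher in interferon-high (0.97) and other macrophages (0.67), but lower in Ly6c2 monocytes (−1.45), where 1 untreated cell held 42 of 88 UMIs and the log2 ratio without the 5 top cells per library was −0.51 (−1.61 to 0.55). Timp1 was lower in Ly6c2 monocytes (−1.72) and proliferating macrophages (−0.73, and −0.70, −1.43 to 0.01, without the 5 top cells per library). It was higher in Cd209a dendritic cells (1.22), where it rests on 11 and 27 UMIs. Without the 5 top cells per library of that gate, 0 and 9 of these UMIs remained.

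T and NK cells served as the background reference and were not among the cells in which NAM was compared with untreated. There, 4 members differed between the libraries by over 1.5-fold with an interval that left out 0. The share of all genes that did so was not taken, so this count is a description. Mmp12 had a log2 ratio of 5.38 on 4 and 176 UMIs, of which 1 NAM cell held 153. Without that cell the NAM level was 13.4 CPM in place of 103 CPM, still above the 2.47 CPM of the untreated library. Mmp9 had a log2 ratio of 2.33, with 96 of 112 NAM UMIs in 2 cells. Plaur was higher with NAM (1.28; 22.9 and 55.5 CPM) and Timp2 lower (−0.62; 106 and 68.9 CPM).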

How the results depend on the processing

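With 1 library per group, no alternative measures variation between mice or library preparations, and the dendritic gates hold few cells (15 to 36). No paired analysis was possible because each group had 1 library and no test was made. Of 434 values under the alternatives, 383 stayed close to the reported ones, 50 moved and 1, a ratio whose interval left out 0, changed sign. Close meant counts within 1.5 times, or ratios inside the reported interval, which is wide for sparse genes. Counts that were 0 in both settings were taken as close, and the 434 include alternatives added after seeing the data. Over the 38 member ratios of the 4 main classes, 8 changed sign under at least 1 alternative, and for 7 of them the reported interval held 0. The ratio of Mmp12 kept its sign in macrophages under all 6 alternatives (0.91 to 1.16), as did Mmp13 (0.75 to 0.81). Scaling by the median ratio of genes shifted ratios by at most 0.04.

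With thinned cells, 1 member was higher in all myeloid cells (Mmp12, with Mmp13 just under 1.5-fold at a log2 ratio of 0.58), 1 lower in macrophages (Mmp9), 0 higher and 3 lower in monocytes (Mmp13, Timp1, Plau) and 0 lower in osteoclast-like cells; thinning leaves fewer UMIs. Without the 5 highest cells of each library, 1 was lower in macrophages (Mmp9), 3 were lower in monocytes (Mmp14, Timp1, Plau) and 0 were 2-fold higher in interferon-high macrophages. Without cells with T and NK markers and the deepest cells, 0 were higher in monocytes. With gate minimums raised by 1, 1 was counted in Cd209a dendritic cells (Timp1). These counts are given without the share of all genes under the same alternative, and the cause of these shifts was not tested. Without cells with an S100a8 or S100a9 UMI, the Mmp9 ratio in osteoclast-like cells was 0.059 (−0.03 to 0.14), and without cells with T and NK markers and the deepest cells it was −0.52.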
